A study of Mus musculus with 47 samples.

Results

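Reads of 8 microglia genes, Csf1r, C1qa, C1qb, C1qc, Cx3cr1, Tmem119, P2ry12 and Ctss, were followed cell by cell. The material was cytosol drawn with a patch pipette from single cells of mouse cortex and hippocampus that were taken as neurons. The genes were chosen as a list, by name, and are 8 of the 22800 gene symbols of the count table. All 8 have a row in the table. The series holds 47 cells, 1 per column, from 8 mice aged 3 to 8 weeks, and each column is called here by the title of its cell, such as N42. The mice carried a fluorescent reporter driven by the Npy promoter, and their strain is given as NPY-hrGFP in the methods and as NPY-EGFP in the design text. The labels place 20 NPY-positive cells in the auditory cortex (AC), 21 in hippocampal CA3, 3 in CA1 and 2 in the dentate gyrus, and call 1 CA3 cell NPY-negative. The labels name no treatment, and no column holds a microglial cell by its label.

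The unit of a level is CPM, for which a gene's reads were divided by the column's total and multiplied by 1000000. They were described in 26 cells with Gad1 reads, namely 10 AC cells, 13 CA3 cells and 3 CA1 cells, and in the 15 columns without a read on Gad1, the gene of a GABA-synthesizing enzyme. Depth ranged from 1715012 to 6265431 reads in the AC cells, from 2229519 to 7949918 in the CA3 cells and from 601781 to 3202430 in the CA1 cells. The columns without Gad1 reads were shallower, with 40934 to 595759 reads in 14 of them and 5135021 in N48. Of these 15 columns, 14 were labelled NPY-positive, and 13 of those 14 had no Npy read and so stood against their label. Columns N4 and N4X of AC had r = 0.9998 over genes, above the 0.977 reached by any of 403 other pairs of the same group, and N4X was kept out of the AC set so that they counted as 1 cell. No label names the mouse of a cell, so each region was taken as 1 sample and no test between groups was made. Intervals are exact, and those of levels take reads as independent counts. The cDNA was amplified without molecular identifiers, so these intervals are narrower than the true counting error. N4 and N4X differed by more than such intervals allow, with a chi-square per degree of freedom of 2.24. Intervals of shares of cells take the cells as independent draws. No interval weighs a difference between regions.

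Microglia are the resident macrophages of the brain and arise from a different lineage than neurons. They depend on signals through the CSF1 receptor, which binds CSF1 and IL34, and they sense fractalkine (Cx3cl1), a ligand made by neurons, through CX3CR1 and ADP through the purinergic receptor P2RY12. They are the main source of the complement component C1q in the healthy brain, which tags synapses for removal, and are rich in lysosomal proteases such as cathepsin S. In sorted brain cells the transmembrane protein TMEM119 and P2RY12 serve to tell microglia from other macrophages.

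Reads of the microglia genes were present in most of the patched neurons with Gad1 reads. At least 1 of the 8 genes had a read in 8 of 10 AC cells (80.0%, exact Clopper-Pearson 95% interval 44.4 to 97.5), in 11 of 13 CA3 cells (84.6%, 54.6 to 98.1) and in 2 of 3 CA1 cells. Among the 15 columns without Gad1 reads it was 2. When each AC and CA3 cell was thinned to 1715012 reads, the depth of the shallowest of them, the shares were 8 of 10 and 10 of 13. The summed level of the 8 genes was 0, 340 and 4987 CPM in the lowest, median and highest AC cell, and 0, 142 and 2161 CPM in CA3. In CA1 it was 0 CPM in N2X, 251 in N1 and 280 in N6. Cells without any member read stood in each region, and the highest cells of AC and CA3 lay above all CA1 cells.

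**Figure D1:**
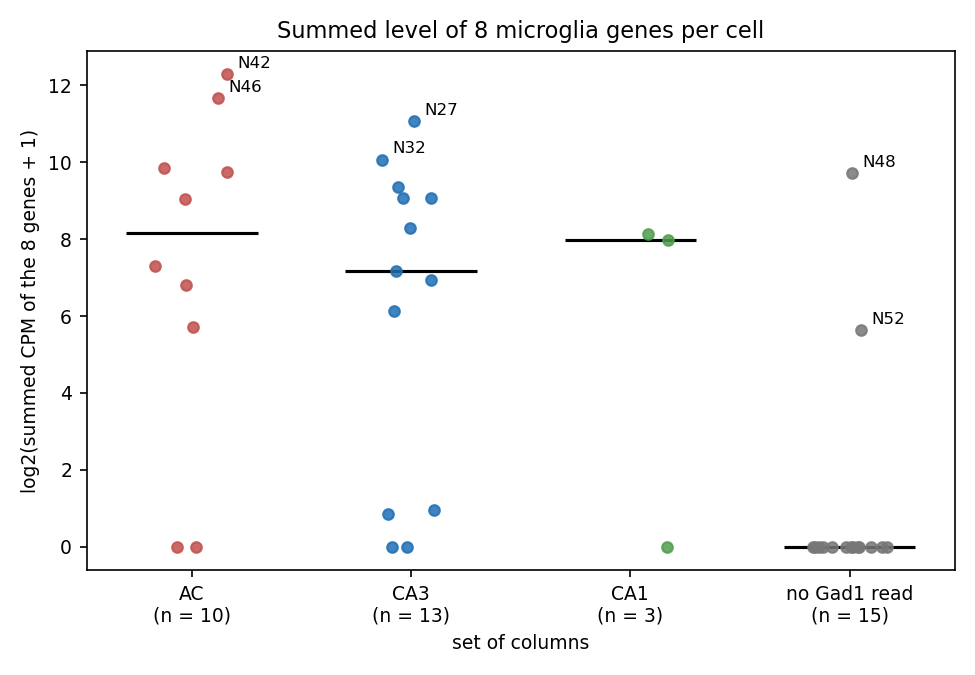
Summed level of the 8 microglia genes per cell, as log2 of summed CPM + 1 on the vertical axis, for 10 AC, 13 CA3 and 3 CA1 cells and 15 columns without a Gad1 read on the horizontal axis. Each point is 1 cell and each line the median of its set; N42 and N46 are the highest AC cells, and in the columns without Gad1 reads all but N48 and N52 lie at 0.

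A few cells carried most of these reads. N42 alone gave 50.8% of the member reads of AC and N27 gave 33.1% of those of CA3. Over all reads of a region together, the 8 genes reached 1107 CPM (exact Poisson 95% interval 1096 to 1118) in AC, 334 CPM (329 to 339) in CA3 and 98.3 CPM (89.8 to 107) in CA1. AC was thereby 3.32-fold above CA3 (3.26 to 3.38), and 1.84-fold without N42. The CA1 level was 270 CPM without N2X and 39.7 CPM without N6. The mean over cells was 1085 ± 1684 CPM (SD, n = 10 cells) in AC and 431 ± 615 CPM (SD, n = 13 cells) in CA3, so that the difference of the means was smaller than the SD over the AC cells and slightly larger than that over the CA3 cells. The summed level of 10 astrocyte genes was 490.0 CPM in AC and 168 CPM in CA3, and that of 10 oligodendrocyte genes was 79.5 and 276 CPM. Without N39 the CA3 levels were 72.5 and 126 CPM, and the oligodendrocyte level of AC was 46.2 CPM without N3X and 49.2 CPM without N46. Their part in the difference was not tested.

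Reads were mostly either absent or plentiful. Of the 208 combinations of a member and 1 of the 26 cells, 66 had reads, with a median of 368 reads. Of these, 58 had 40 reads or more and 8 had 1 to 12 reads. These limits were set after the counts were seen, so the gap between them was given. No cell held all 8 genes. None of the genes was read in 5 cells (N43 and N7 of AC, N31 and N37 of CA3, N2X of CA1), 1 to 4 in 14 cells, 5 in 6 cells (N41, N46, N5, N32, N33 and N6) and 6 in N42.

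**Figure D2:**
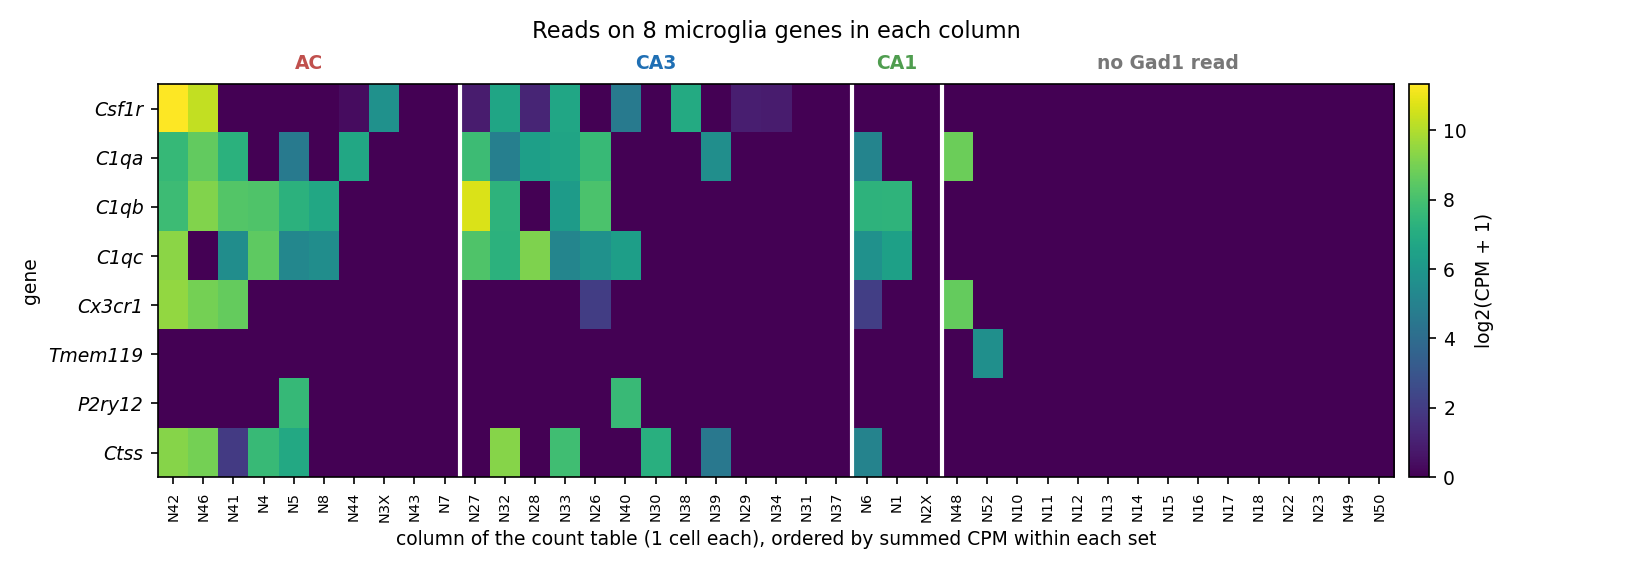
Reads on the 8 microglia genes (rows) in the 26 cells with Gad1 reads and the 15 columns without (columns, ordered by summed CPM within each set), colored by log2 of CPM + 1. Of the 208 combinations among the 26 cells, 66 are above 0, and the colored fields of a cell differ from its neighbors in which genes they cover.

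Csf1r encodes the receptor for CSF1 and IL34. Its reads were found in 4 of 10 AC cells, at 2583 CPM in N42, 1274 in N46, 51.8 in N3X and 0.303 in N44, the last being 1 read. In CA3 they were found in 8 of 13 cells, of which N38, N33, N32 and N40 held 121, 103, 100.3 and 24.6 CPM and N27, N28, N29 and N34 held 2 to 4 reads each. No CA1 cell had a read, where 3 reads of the summed reads are worth 0.596 CPM. The summed level was 16-fold higher (15 to 17) in AC, at 419 against 26.1 CPM, and 5.51-fold without N42. The groups overlapped at the low end, and the AC excess lay in N42 and N46. Its annotated span overlaps that of Hmgxb3 on the opposite strand, and how far their exons overlap was not measured.

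Cx3cr1, the fractalkine receptor, was read in 3 of 10 AC cells. N42 held 719 CPM, N46 held 497 and N41 held 404. Only N26 of the CA3 cells had reads, 7 of them (3.14 CPM), and only N6 of CA1, with 4 reads (3.25 CPM). The summed level was 180 CPM in AC and 0.143 CPM in CA3, a ratio of 1258 (610 to 3130) that rests on 7 reads of CA3, and of 781 without N42. In 7 of the 10 AC cells and 12 of the 13 CA3 cells the gene had no read, so most cells of both regions were alike at 0. The annotated span of Cx3cr1 overlaps genes on both strands and the library kit does not keep the strand, which leaves its count uncertain.

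P2ry12, the ADP receptor that guides microglial processes, was read in 1 AC cell and 1 CA3 cell. N5 of AC held 361 reads (191 CPM) and N40 of CA3 held 877 (204 CPM). The other 24 cells had none. The log2 ratio of AC over CA3 was -0.76 from summed CPM but 0.40 with TMM factors, 0.24 with DESeq2 factors and 0.28 from mean CPM over cells, and it compares 1 cell with 1 cell. The annotated span of the gene overlaps that of Med12l on the opposite strand, and how far their exons overlap was not measured. Tmem119 had no read in any of the 26 cells, which allows up to 0.0881 CPM in AC, 0.0614 CPM in CA3 and 0.0341 CPM over all 26. Among the 26 cells, P2ry12 was thus read in 2 and Tmem119 in none. Of the 25 other microglia genes described below, 21 had a read in these cells.

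C1qa, C1qb and C1qc encode the A, B and C chains that assemble into C1q, the molecule that starts the classical complement pathway. The genes lie side by side on the minus strand of mouse chromosome 4 (GRCm38, GENCODE vM21), C1qb at chr4:136880129-136886187, C1qc at chr4:136889804-136893065 and C1qa at chr4:136895917-136898803. C1qa was read in 5 of 10 AC cells, at 386 CPM in N46, 191 in N42, 150 in N41, 110 in N44 and 24.9 in N5, and in 6 of 13 CA3 cells, where N27 was highest at 216 CPM and N32 lowest at 29.1. C1qb was read in 6 AC cells, from 111 CPM in N8 to 583 in N46, and in 4 CA3 cells, at 1648 CPM in N27, 281 in N26, 158 in N32 and 73.4 in N33. C1qc was read in 5 AC cells, from 36.5 CPM in N5 to 657 in N42, and in 6 CA3 cells, from 34.8 in N33 to 566 in N28. In CA1, N6 held all chains, at 33.3, 158 and 52 CPM for C1qa, C1qb and C1qc, and N1 held C1qb at 165 and C1qc at 86.4 CPM. For each chain the range of the cells with reads in AC overlapped that in CA3.

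Between the regions, summed C1qa was 89.6 CPM in AC and 41.3 CPM in CA3, a 2.17-fold difference (2.05 to 2.30) that was 1.41-fold without N46. Summed C1qb was 164 against 113 CPM, 1.45-fold (1.40 to 1.51), with 5.41-fold without N27 and a log2 ratio of -0.10 with scran factors, where the direction turned. Summed C1qc was 109 against 65.0 CPM, 1.68-fold (1.60 to 1.76), and fell to 0.608-fold without N42, so its direction rested on that cell. Single cells thus set the size of the difference for every chain.

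The split of the reads among the chains differed from cell to cell. Any C1q chain was read in 16 of the 26 cells, and of these 8 held all chains, 5 held 2 chains and 3 held 1 chain. N46 had 1254 reads of C1qa and 1892 of C1qb but none of C1qc. N28 had 197 of C1qa and 1344 of C1qc but none of C1qb. In the 11 cells with both, the ratio of C1qb to C1qc reads ran from 0.328 in N42 to 6.84 in N41, a 20.9-fold spread, and in 9 cells that of C1qa to C1qb ran from 0.131 in N27 to 1.31 in N33, a 10-fold spread. N4 and N4X, counted as 1 cell, had ratios of C1qb to C1qc of 0.812 and 0.826.

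**Figure D3:**
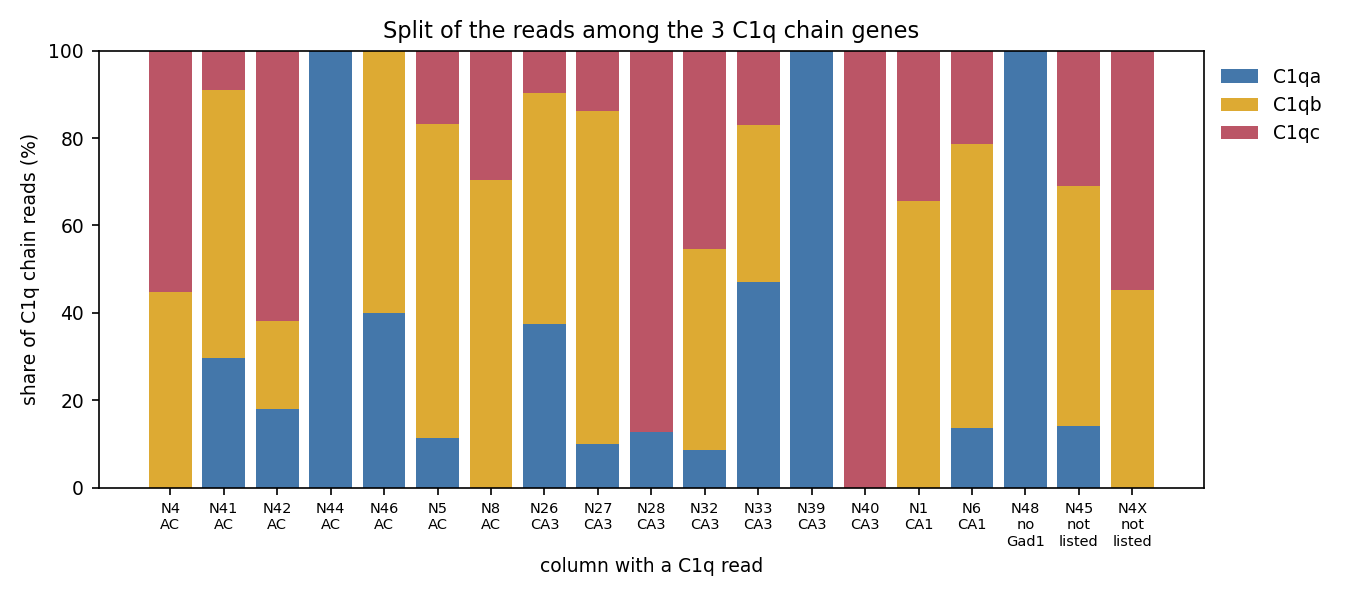
Split of the C1q reads among C1qa, C1qb and C1qc (percent, vertical axis) in each column with a C1q read (horizontal axis, with its set). C1qc is absent in N46 and C1qb in N28 although the other chains had over 100 reads, and the split differs between cells; N4 and N4X are counted as 1 cell.

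The sequences before C1qb and C1qc are shown because these neighbors were the members most often read in the same cell. RefSeq promoters (GRCm38.p6) were given for 5 of the 8 members, and the window is the 250 bases before the start, for C1qc shortened to the 99 bases that lie before both the RefSeq and the GENCODE start. Capitals mark the word GAGGAA or, on the other strand, TTCCTC, which is the core of the site of PU.1, the myeloid transcription factor encoded by Spi1. The C1qb window is chr4:136886201-136886450 and the C1qc window is chr4:136893066-136893164, both on the minus strand.
C1qb: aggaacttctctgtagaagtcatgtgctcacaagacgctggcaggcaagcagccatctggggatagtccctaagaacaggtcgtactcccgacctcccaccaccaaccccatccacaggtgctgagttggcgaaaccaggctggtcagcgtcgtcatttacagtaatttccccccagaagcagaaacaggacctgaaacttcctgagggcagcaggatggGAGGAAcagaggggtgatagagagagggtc
C1qc: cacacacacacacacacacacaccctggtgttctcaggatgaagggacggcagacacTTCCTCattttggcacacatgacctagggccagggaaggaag
The word began 30 bases before the RefSeq start of C1qb and 193 before that of C1qc. It was found in 3 of the 5 members with a window (C1qb, C1qc and Ctss), not in those of Cx3cr1 and P2ry12. Of 32851 promoters of 250 bases, 23.3% held it, and the C1qc window of 99 bases is shorter than these. The word overlaps no other word searched, and a match is a description of the letters and not a site.

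Ctss encodes cathepsin S, a cysteine protease of lysosomes. It lies at chr3:95526786-95556403 on the plus strand, and the 250 bases before its start, chr3:95526536-95526785, are shown since it was the member outside the C1q cluster that held the same word, 164 bases before the start.
Ctss: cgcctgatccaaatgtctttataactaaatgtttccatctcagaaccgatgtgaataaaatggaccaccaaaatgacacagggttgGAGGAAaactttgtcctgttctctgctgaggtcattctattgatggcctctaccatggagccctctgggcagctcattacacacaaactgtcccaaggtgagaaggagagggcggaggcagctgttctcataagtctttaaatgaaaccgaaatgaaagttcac
Ctss was read in 5 of 10 AC cells, at 623 CPM in N42, 507 in N46, 195 in N4, 113 in N5 and 2.75 in N41. In CA3 it was read in 4 of 13 cells, at 629 CPM in N32, 230.0 in N33, 142 in N30 and 22.4 in N39, and in CA1 in N6 at 32.5 CPM. The highest cells of both regions thus stood at nearly the same level. The summed level was 135 CPM in AC and 70.3 CPM in CA3, 1.92-fold (1.83 to 2.01), and 1.04-fold without N42 or 4.20-fold without N32. The annotated gene overlaps the pseudogene Hmgb1-ps5 on the same strand, so its count is uncertain to that extent.

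Between AC and CA3, a gene was called where the summed levels differed at least 2-fold, with 3 reads as the floor. Of the 7 members with reads, 3 were called higher in AC (Csf1r, C1qa and Cx3cr1) and 0 higher in CA3. C1qa was not past this limit with scran (log2 ratio 0.86), TMM (0.73) or mean CPM over cells (0.74), and Ctss was past it with scran (1.19) and DESeq2 (1.24). Over all 13624 genes with a read in either region, 25.9% were called higher in AC and 30.7% higher in CA3, and 27.8% and 33.5% of the 12435 genes with at least 10 reads. The median log2 ratio of AC over CA3 was 0.94 over the 7 members and -0.02 over all genes read in both regions. Of the 25 other microglia genes, 21 had reads, 11 were called higher in AC, 3 higher in CA3 and 7 differed less, with a median log2 ratio of 1.70 over the 12 read in both. With 1 sample per region and calls that turned on single cells, these counts describe these cells and not the regions.

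To compare levels between genes, CPM was divided by the exonic length in kb. Over the 26 cells the level per kb was 119 CPM for C1qb, 67.6 for Ctss, 55.9 for C1qa, 41.2 for C1qc, 30.6 for Csf1r, 15.5 for Cx3cr1, 5.53 for P2ry12 and 0 for Tmem119. In AC alone, Csf1r stood at 72.5 CPM per kb, above C1qc at 56.5, so the order of receptors and complement genes was not the same in each region. Neighbors in this order did not differ beyond the spread over cells, since the SD over cells exceeded the mean for each of the 7 genes with reads, as with Ctss at 96.0 ± 192 CPM (SD, n = 26 cells) before division by length.

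Whether the genes rose together per cell was described with the 6 members read in 3 or more of the 26 cells. The median Spearman rho of CPM over their 15 pairs was 0.38, from 0.04 for Csf1r with C1qb to 0.63 for C1qb with C1qc and C1qa with Cx3cr1. At least 0.5 was reached by 4 of the 15 pairs (26.7%), compared with 1.37% of the 12537528 pairs among 5008 genes read in 5 to 13 cells, whose median was 0.04. C1qb and C1qc were both read in 11 of the 14 cells with either, and C1qa and C1qb in 9 of 15. All 5 cells with Cx3cr1 reads also held C1qa and C1qb. C1qc and Cx3cr1 were read together in 4 of 14 cells (rho 0.26), Csf1r and C1qa in 7 of 17 (0.30) and Csf1r and C1qb in 5 of 19. No difference between pairs was tested. The points share library preparation and depth, and zeros make many ties. The median rho was 0.60 over the AC cells alone and 0.23 over the CA3 cells alone, a difference that was not tested. Cx3cr1 was read in 1 CA3 cell, below the limit of 3, so these medians do not cover the same pairs.

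**Figure D4:**
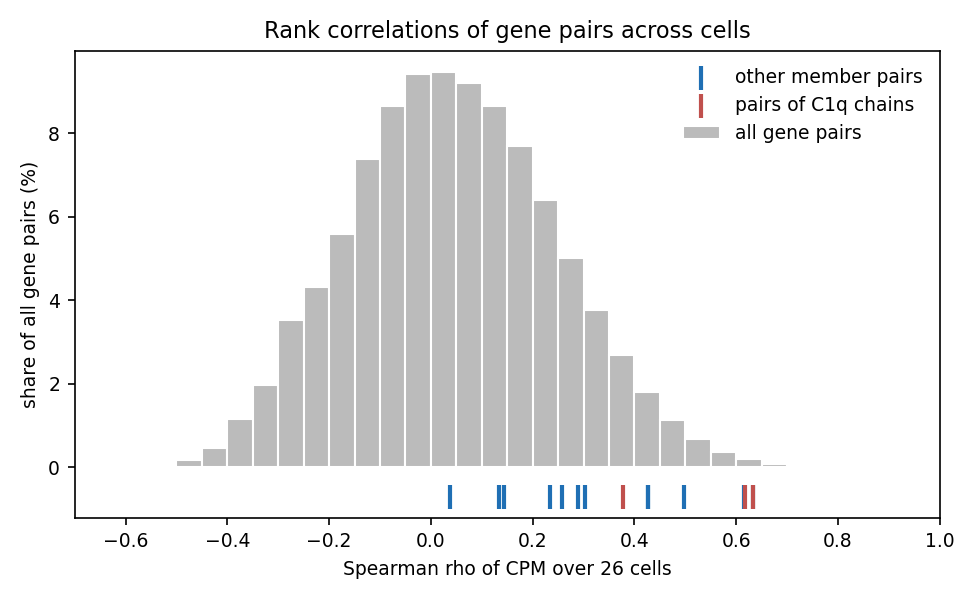
Spearman rho of CPM over 26 cells (horizontal axis) for all pairs of genes read in 5 to 13 cells (gray bars, share of pairs in percent) and, as ticks, for the 15 pairs of members, with pairs of C1q chains in red. The ticks run from 0.04 to 0.63, and all lie above 0; near the highest values ticks overlap.

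The members moved with other genes of microglia. Their summed CPM and that of the 25 other microglia genes had a Spearman rho of 0.85 and a Pearson r of log2(CPM + 1) of 0.81 over the 26 cells, and of 0.81 and 0.77 without N42 and N46, the cells farthest from the median. Both lists were read in 19 cells, only the members in 2, only the other genes in 3 and neither in 2. Tyrobp, an adaptor of microglial receptors, was read in 7 of 10 AC cells (179 CPM summed) and 6 of 13 CA3 cells (64.6 CPM). Without N46 the AC level was 84.6 CPM and without N39 the CA3 level was 39.4 CPM. Gpr34, a lysophospholipid receptor, was read only in N46 of AC at 1628 CPM and N27 of CA3 at 325 CPM. Cd33, Cst7, P2ry13 and Selplg of the list had no read in the 26 cells. The summed level of the 25 genes ran from 0 to 4985 CPM in AC, from 0 to 2884 in CA3 and from 0 to 1135 in CA1.

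**Figure D5:**
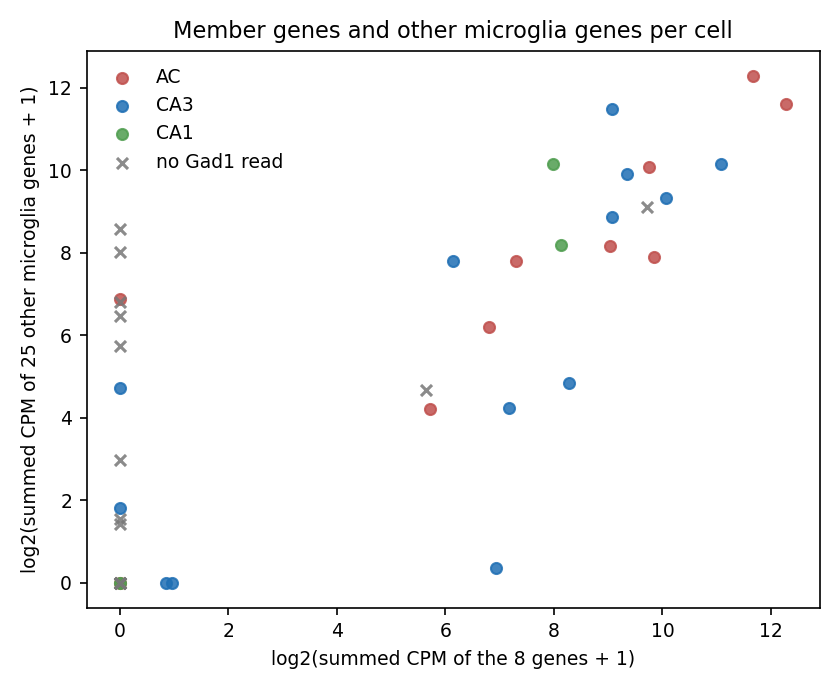
Summed level of the 8 microglia genes (horizontal axis) and of 25 other microglia genes (vertical axis) per column, both as log2 of summed CPM + 1, for AC, CA3 and CA1 cells (points) and columns without a Gad1 read (crosses). The 26 cells run from the lower left to the upper right (Spearman rho 0.85), and most crosses lie at 0 on the horizontal axis.

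Markers of other cells moved less closely with the members, and their part in the result was not tested. The astrocyte list had a rho of 0.49 with the summed members (0.38 without N42 and N46), with 7 of 10 genes read, 0.303 to 3237 CPM in AC, 0 to 660 in CA3 and 155 to 1683 in CA1, and Aqp4, Fgfr3 and Gjb6 at 0. The perivascular macrophage list had a rho of 0.40, with 5 of 8 genes read and at most 162 CPM in AC, 158 in CA3 and 0.813 in CA1. Its genes Mrc1, Cd163 and Lyve1 were at 0. Its highest gene was Lyz2, lysozyme, at 20.1 CPM in AC (5.10 without N46) and 18.4 CPM in CA3 (5.01 without N40). Cbr2 and Pf4, next in that list, were read in N5 alone, which held 4 of the 8 genes at 125 CPM summed. The oligodendrocyte list had a rho of 0.34, with 7 of 10 genes read, at most 367 CPM in AC, 1043 in CA3 and 354 in CA1, and Cldn11, Mog and Opalin at 0.

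The remaining lists stood further off. The rho with the summed members was 0.11 for oligodendrocyte precursor genes (1 of 5 read, at most 213 CPM), 0.08 for endothelial genes (2 of 7 read, at most 33.7 CPM), -0.43 for pericyte genes (3 of 5 read, at most 81.2 CPM) and 0.23 for pyramidal cell genes (7 of 8 read, at most 648 CPM). All 6 genes of the GABAergic list and all 6 of the pan-neuronal list were read. Their summed levels ran from 4936 to 31448 and from 3657 to 12384 CPM over the 26 cells, with rho of 0.14 and -0.00. Neither total reads (rho -0.18) nor the number of detected genes (-0.23) rose with the members. Pan-neuronal genes were thus read in each of the 26 cells, those with the most microglia reads included. GABAergic reads in each cell were given by the selection, since the 26 cells all have Gad1 reads and Gad1 is in that list.

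Of the ligands of the receptors, Cx3cl1 was read in every cell and Csf1 and Il34 in few. Cx3cl1, the fractalkine gene, had reads in all 26 cells, at 428 CPM in AC, 352 in CA3 and 491 in CA1, with rho -0.15 against the summed members. Csf1 had no read in AC and reads only in N38 of CA3 (269 reads) and N6 of CA1 (90 reads). Il34 was read in N4 of AC (156 CPM) and in 5 CA3 cells from 3.75 to 149 CPM. Of the cells with reads of either of these ligands, N38, N33 and N34 also had Csf1r reads. Of the inhibitors, Cst3, which encodes the cathepsin inhibitor cystatin C, was read in all 26 cells, at 2196 CPM in AC, 1117 in CA3 and 655 in CA1, with rho 0.80. Without N2X, the deepest CA1 cell, the CA1 levels of Cx3cl1 and Cst3 were 259 and 1221 CPM. Serping1, the C1 inhibitor gene, had no read in any set. Cd47, a don't-eat-me signal, was read in all 26 cells, at 421 CPM in AC, 325 CPM in CA3 and 912 CPM in CA1 (527 without N2X). Of the 23 ligands, partners and inhibitors, 16 had reads, of which 7 were called higher in AC, 2 higher in CA3 (Csf1 and Il34) and 7 differed less, beside the 25.9% and 30.7% of all genes called in these directions. The list as a whole had rho 0.66 with the members. Cst3 was its highest gene over the 26 cells, and Cd47 its highest in CA1.

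Outside all lists, the 5 genes most like the summed members, by Spearman rho over the 26 cells among 9488 genes read in at least 5 of them, were Sparc (0.76), Fth1 (0.72), Gm10116 (0.72), Akap6 (0.71) and Ftl1 (0.69). The median over the 9488 genes was -0.05. Sparc encodes a secreted matrix glycoprotein, and Fth1 and Ftl1 encode the chains of ferritin. Fth1 stood at a median of 1361 CPM in AC and 1500.4 CPM in CA3.

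In the 15 columns without Gad1 reads, C1qa and Cx3cr1 were read only in N48 of AC, with 2257 reads (440 CPM) and 2059 reads (401 CPM), and Tmem119 only in N52, with 2 reads. C1qb, C1qc, Csf1r, P2ry12 and Ctss had no read in any of them. N48 had 4316 of the 4318 member reads, held Laptm5 (2214 reads) and Tyrobp (527 reads) as well, and was the 1 column of the 15 with Npy reads. The summed level was 483 CPM (468 to 497) with it and 0.525 CPM (0.0636 to 1.90) without it, beside 620 CPM over the 26 cells with Gad1 reads. Those 14 columns are shallow, and 3 reads in 1 of them are worth 5.04 to 73.3 CPM. Above the highest of these limits lay 17 of the 26 cells, so levels as in those 17 cells are worth over 3 reads at the depth of each of the 14 columns.

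Against the 26 cells, 2 members were called at least 2-fold higher in the columns without Gad1 reads (C1qa and Cx3cr1) and 5 lower, where 16.8% and 58.2% of 14916 genes were called and the median log2 ratio over genes read in both was -1.79. The calls of C1qa and Cx3cr1 rest on N48, and Tmem119 was not called since its 2 reads lie under the floor of 3. The glial lists behaved otherwise in these columns. All 10 astrocyte genes, all 10 oligodendrocyte genes and all 5 precursor genes were read there, at up to 40102, 199572 and 10822 CPM in a column, while the other microglia list, with 10 of 25 genes read, reached 548 CPM. Of the rest, 3 perivascular macrophage genes, 3 endothelial, 1 pericyte and 3 pyramidal cell genes had reads, as had 4 of 6 GABAergic genes, at up to 31768 CPM in a column, and all 6 pan-neuronal genes, at up to 22566 CPM. At their depth, the columns rich in astrocyte or oligodendrocyte genes thus held no read of the 8 microglia genes.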

How the data were processed

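Raw counts of reads per gene symbol were deposited in a single table, 1 patch-seq library (polyA RNA, Nextera XT, no strand kept) per column. Per the labels, reads were trimmed with Trimmomatic, aligned with STAR to GRCm38 and counted with featureCounts, while the methods name HTSeq for counting. Counts were not normalized. CPM, summed CPM over cells and shares of cells were computed from them with Python 3.11.15 and scipy 1.17.1. A gene was detected with at least 1 read, and called at a fold of 2 between summed CPM with a floor of 3 reads, where the higher sum had to exceed the floor. The 10 AC and 13 CA3 columns were those that an earlier analysis had matched to cells drawn in the study's heat maps, which for CA3 found only part of the cells the study kept, and columns N36, N45, N47, N4X, N51 and N9 were in no set.

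The members, columns and gene lists were chosen with earlier results of these data known. Named genes were the 8 members, the 3 highest genes of the other microglia, perivascular macrophage and ligand lists by summed CPM, the direct ligands and inhibitors of members (Csf1, Il34, Cx3cl1, Cst3 and Serping1), and the 5 genes outside all lists most like the summed members. A gene that this rule names in the other microglia list is not reported here. Laptm5 and genes at 0 were named after their values were seen, as was the range of 5 to 13 cells for pairs of genes. For the astrocyte, oligodendrocyte, precursor, endothelial, pericyte, pyramidal, GABAergic and pan-neuronal lists, counts and ranges are given. Each region counts as 1 sample because no mouse is named, so no test between groups was run, and Dixon's ratio was used only to mark single AC cells. Poisson and Clopper-Pearson 95% intervals are exact for independent reads and independent cells only. Alternatives were size factors of scran 1.30.0, edgeR 4.0.16 (TMM) and DESeq2 1.42.0 (poscounts) in R 4.3.3, mean CPM over cells, all labelled cells, 10 reads for detection, and each cell or member left out. Lengths and positions came from GENCODE vM21 and promoters from RefSeq. The scripts were tested on simulated data.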

Additional observations from a re-analysis of the deposited data

Results flagged for a closer look

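In AC, 3 genes had 1 cell far above the others by Dixon's ratio (above its 95% critical value), computed for the 7 members with reads in AC and for their sum. Chance flags about 1 in 20 groups of normally spread values. The 7 members had no read in 4 to 9 of the 10 AC cells, so that rate does not hold here and the ratio only marks cells. The flagged genes were Csf1r in N42 at 2583 CPM, C1qa in N46 at 386 CPM and P2ry12 in N5 at 191 CPM. For P2ry12, N5 was the only AC cell with reads, which fixes the ratio at its highest value whatever the level.

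Tmem119, absent from the 26 cells, was read in 2 AC columns outside the sets described. N45 held 59.8 CPM (315 reads) and N51 held 2.14 CPM (4 reads). N45 had 10339 Gad1 reads, was read for 6 of the 8 members and reached 828 CPM summed over them. With N52, the deposited table thus has Tmem119 reads in 3 of its 47 columns.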

How the results depend on the processing

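The log2 ratio of the summed members in AC over CA3 was 1.73. It was 1.45 with scran factors, 1.31 with TMM, 1.62 with DESeq2, 1.33 from mean CPM over cells and 1.49 over all labelled cells. Without Csf1r it was 1.16, without C1qa 1.80, without C1qb 2.09, without C1qc 1.89, without Cx3cr1 1.47, without P2ry12 1.80 and without Ctss 1.88, and leaving out 1 cell gave 0.88 (N42) to 2.23 (N27). The cause of these shifts was not tested, and the direction held in each. Of 35 recomputed ratios of single genes, 31 kept their sign, the exceptions being C1qb with scran and P2ry12 with TMM, DESeq2 and mean CPM. The number of members called higher in AC, 3, was 2 to 4, and that called higher in CA3, 0, was 1 over all labelled cells.

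The share of cells with a member read, 80.0% in AC and 84.6% in CA3, was 77.8% to 88.9% and 83.3% to 91.7% when 1 cell was left out, and 68.4% and 52.4% over all labelled cells, which include the columns without Gad1 reads. With at least 10 reads it was 80.0% and 69.2%, which turns the order of the regions. The log2 ratio of columns without Gad1 reads over the 26 cells was -0.36, and -2.22, -3.69, -3.00 and -3.46 with scran, TMM, DESeq2 and mean CPM, against medians over all genes of -1.79, -0.05, -1.02, -1.37 and -0.76 in the same order. Leaving out 1 column gave -10.21 (N48) to 0.20 (N42), so its size and sign rest on these cells. The CA1 level, 98.3 CPM, was 149 to 180 CPM with other scalings and 39.7 (N6) to 270.2 CPM (N2X) when 1 cell was left out. The median rho over pairs of members, 0.38, was 0.31 (N42) to 0.45 (N4) when 1 cell was left out, and 0.60 in AC alone, an alternative chosen after the data were seen, like CA3 alone and the columns without N48.

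No paired analysis was possible because no label ties a cell to a mouse, and replicate numbers were given in accession order. Counts of amplified reads limit all levels, and cells at 0 reads say only that no read was found at their depth.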
